A study of Mus musculus with 36 samples.

Results

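The mouse Zfp genes expressed in bone marrow-derived macrophages were followed through 6 times of lipopolysaccharide (LPS) exposure in 2 genotypes. Members were the rows of the deposited expression table whose symbol is Zfp followed by digits and optional letters, with a mean log2 value of at least 6 over the 36 libraries. Zfp36, Zfp36l1 and Zfp36l2, which encode mRNA decay proteins, were left out. The rule kept 182 genes of 345 Zfp rows and of 16416 rows in all. The members were thus chosen by their mean level over all libraries, which is given here only as a description. Zfp526 (mean log2 value 6.002), Zfp944 (6.014) and Zfp202 (6.036) lay just inside the threshold. Zfp59 (5.999), Zfp955b (5.979) and Zfp764 (5.97) lay just outside it. All 182 members passed the filter on low values, as did 117 of the 163 Zfp rows below the threshold.

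The D310N group carried an aspartate-to-asparagine substitution in Tnip2, which encodes the ubiquitin-binding protein ABIN-2, a partner of A20 and of the kinase Tpl2. It was set against wild type (WT). A substitution does not show in a table of gene levels, so the genotype labels could not be checked from it. The deposited column names spell the mutant D309N, while the sample titles give D310N. Bone marrow cells of each genotype had been cultured for 7 days, on plates that do not hold cells fast, with 10% serum and 10% L929 supernatant, a source of the macrophage growth factor CSF1. They then received 100 ng/ml LPS, the Toll-like receptor 4 ligand of Gram-negative bacteria. Libraries were made at 0, 30, 60, 120, 240 and 360 min, with 3 libraries for each genotype and time. Age, sex and whether the 3 libraries of a group came from separate animals are not given in the sources used here, so p-values measure the spread between these libraries, which may be technical.

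C2H2 zinc fingers are small zinc-holding folds that read DNA, with arrays of fingers reading longer sites. Many vertebrate Zfp proteins carry a KRAB domain at the amino end, which recruits TRIM28 (KAP1) and through it SETDB1, HP1 proteins and histone deacetylases, so that bound chromatin is silenced. KRAB genes sit in clusters that grew by duplication, and their best known targets are retroelements and imprinted genes. Other Zfp proteins are activators, corepressor subunits, ribosome or RNA factors, or ubiquitin and SUMO ligases.

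The label was checked against the proteins translated from the GENCODE coding sequences. At least 1 C2H2 motif was found in 178 of the 182 members, and none in Zfp330, Zfp703, Zfp839 and Zfp935. A KRAB motif was found in 84 members, with a median of 12 C2H2 motifs, and was not found in 98 members, with a median of 7. The motif search is strict and leaves out divergent KRAB domains such as that of Zfp263, so the 98 are not all free of one. Chromosome 7 held 39 members, chromosome 17 held 24 and chromosome 13 held 17. Reads from near-identical copies cannot be assigned with confidence, and 21 members shared more than 10% of their 75-base windows with another gene. Zfp935 shared 100%, Zfp433 90.8% and Zfp97 75.3%, and the values of these 21 are uncertain. Strand use in the counting is not given in the sources used here, so values of overlapping genes are uncertain too.

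The table holds normalised log2 values without counts, so depth per library is unknown and no counting interval can be given. Library medians over all rows lay between 6.83 and 7.20. All 8 macrophage markers were expressed, with a median log2 value of 14.21 over their means, while 0 of 8 neutrophil markers and 0 of 6 measured lymphocyte and NK markers reached 10 on the linear scale. Of the other lists, 1 of 5 fibroblast markers, 1 of 3 dendritic cell markers and 1 of 3 measured erythroid, megakaryocyte and mast cell markers reached it, the last with a mean log2 value of 10.08. WT 360 min replicate 1 stood apart from its 2 fellow libraries and received a weight of 0.0747 when limma weighted the libraries. The WT split, the genotype split and the largest genotype differences at 360 min, and the joint test, are also given without it. Other 360 min values in WT macrophages include it. The summed log2 level of 10 proliferation markers, all of which were expressed, lay between 12.22 and 12.36 in the D310N libraries and between 12.96 and 13.05 in the WT libraries at 0 min. At 360 min it lay between 10.71 and 10.97 in the D310N libraries and was 11.87, 11.08 and 11.20 in the WT libraries, the first of these being replicate 1. The 11.87 lay nearer to the WT 240 min libraries, at 11.91 to 11.99. Replicate 1 was also near them for Trim28 (10.43, against 10.40 to 10.51 at 240 min and 10.02 and 10.17 in its fellows). For Dnmt3a it was at 11.02, against 10.92 to 10.96 and 11.45 and 11.50. Whether it matches 240 min over all genes was not tested. The part of proliferation in the results below was not tested. In bulk RNA, fewer cells of a type and less RNA per cell cannot be told apart.

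The Zfp genes as a group were lowest 60 min after LPS. Per library, the median log2 value over the 182 members was 7.22, 7.22 and 7.20 in D310N macrophages at 60 min, against 7.57, 7.61 and 7.53 at 0 min. In WT macrophages it was 7.25, 7.22 and 7.23 at 60 min, against 7.63, 7.63 and 7.57 at 0 min. The 60 min and 0 min libraries did not overlap in either genotype. By limma over all 11656 genes tested, 113 members fell and 24 rose in D310N macrophages at 60 min, with a median log2 difference of -0.31, where 38.5% of all genes were called, 21.3% higher and 17.2% lower. In WT macrophages 122 members fell and 26 rose, with a median of -0.40, where 37.2% of all genes were called, 20.1% higher and 17.1% lower. The share of members that fell was thus 62.1% in D310N and 67.0% in WT macrophages. With the 21 members that share reads left out, 110 of 161 fell and 20 rose in WT macrophages, with the same median of -0.40.

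**Figure D1:**
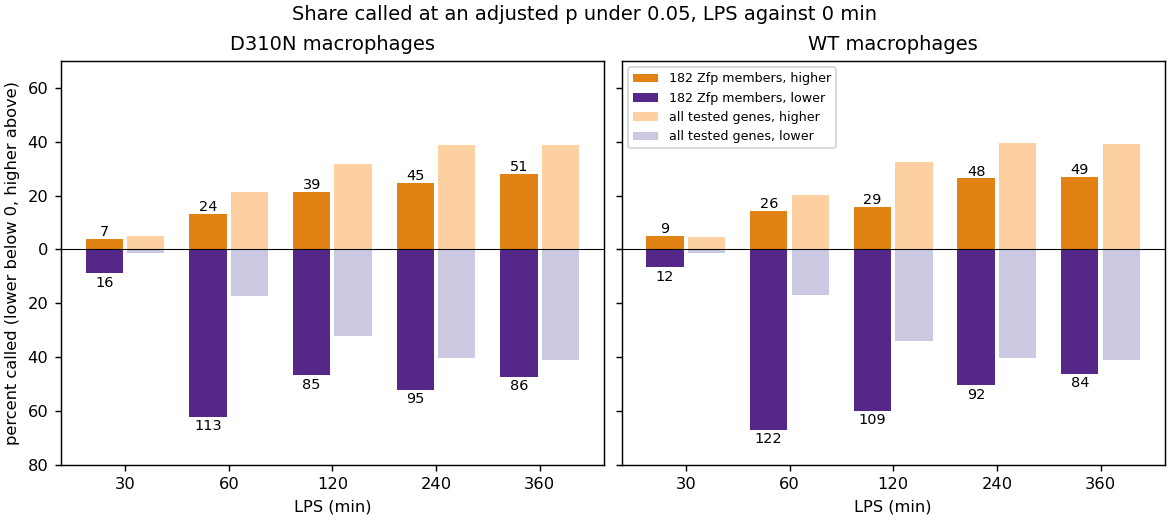
Share of the 182 Zfp members (dark bars) and of all 11656 tested genes (pale bars) called higher (above 0) or lower (below 0) than at 0 min, by LPS time in min, in D310N (left) and WT (right) macrophages. Numbers are members called. The lower bars of the members reach 62.1% (D310N) and 67.0% (WT) at 60 min, when 17.2% and 17.1% of all genes were lower. Under quantile normalisation the WT members at 360 min turn to 73 higher and 54 lower.

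At 60 min the median difference lay further below 0 for members with a KRAB motif than for the others. Of the 84 with the motif, 61 fell and 9 rose in D310N macrophages, with a median log2 difference of -0.48, and 62 fell and 12 rose in WT macrophages, with a median of -0.52. Of the 98 without the motif, 52 fell and 15 rose in D310N macrophages (median -0.24), and 60 fell and 14 rose in WT macrophages (median -0.28). Counts of differences over 1 on the log2 scale were not matched for level. The share of all genes past that size is not given here, so nothing is read from them. Such differences were called for 15 KRAB members in D310N macrophages, 13 of them lower, and for 16 in WT macrophages, 15 of them lower. Among the others, 3 passed that size in each genotype, 2 of them higher, Zfp263 and Zfp131. Zfp263 has a divergent KRAB domain that the motif search missed.

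KRAB members also had lower values in the table, with a median of the mean log2 values of 6.96 against 7.92 for the others and, per kb of transcript, a median log2 level of 5.20 against 6.08. The shares were therefore set side by side within classes of the mean log2 value, which is not corrected for length and groups rows by their value in the table. Between 6 and 7, 74.4% of 43 KRAB members, 68.2% of 22 others and 29.8% of 1144 genes of that level fell in D310N macrophages. In WT macrophages the shares were 72.1%, 77.3% and 28.2%. Between 7 and 8, 80.0% of 30 KRAB members, 72.4% of 29 others and 25.3% of 1529 genes fell in D310N macrophages, and 80.0%, 75.9% and 25.2% in WT macrophages. At 8 and above, 45.5% of 11 KRAB members, 34.0% of 47 others and 12.3% of 6731 genes fell in D310N macrophages, and 63.6%, 44.7% and 12.4% in WT macrophages. In each class and both genotypes the share of members that fell was above that of all genes of the same level. The KRAB share was above that of the other members except in WT macrophages between 6 and 7. At 240 min, when 79.1% of all genes in D310N and 80.0% in WT macrophages were called in about equal parts each way, 52 KRAB members fell and 16 rose in D310N (median -0.35) and 47 fell and 19 rose in WT macrophages (median -0.26), while of the others 43 fell and 29 rose in D310N (median -0.10) and 45 fell and 29 rose in WT macrophages (median -0.11).

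Across the 182 members, the 60 min difference went with the number of C2H2 motifs at a Spearman correlation of -0.26 in both genotypes, and with the mean log2 value at 0.47 in D310N and 0.43 in WT macrophages. It went with coding length at 0.04 and 0.02. These are descriptions across genes that share libraries and, in part, ancestry. The mean log2 value is what the rule selected on and includes the 60 min libraries, so nothing is read from its correlation.

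**Figure D2:**
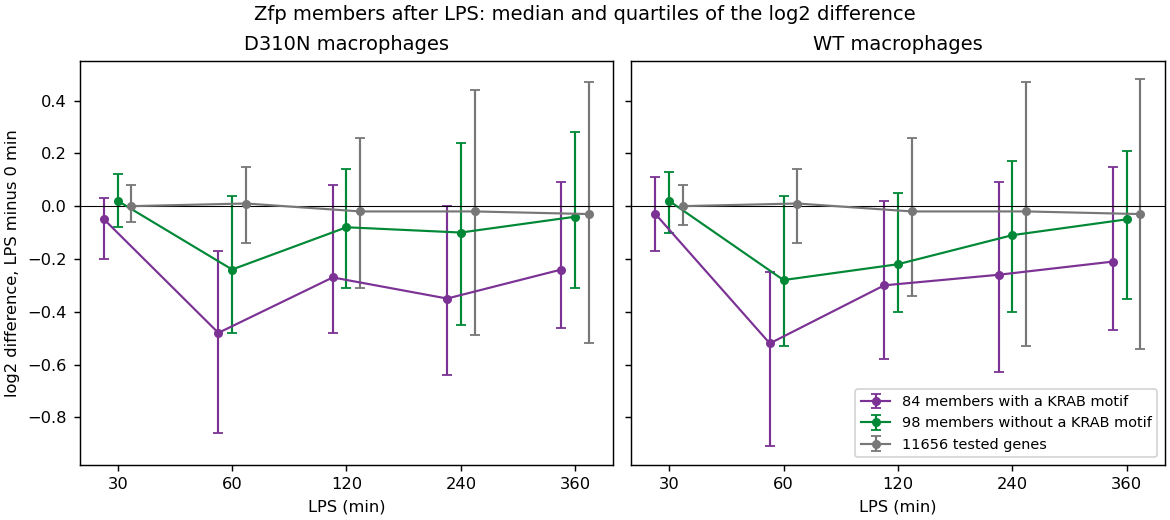
Median log2 difference from 0 min (points) with quartiles (bars), by LPS time in min, for the 84 members with a KRAB motif, the 98 without and all 11656 tested genes, in D310N (left) and WT (right) macrophages. The KRAB median is lowest at 60 min, at -0.48 in D310N and -0.52 in WT macrophages, while the median of all genes stays near 0.

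The deepest falls at 60 min were those of Zfp60 and Zfp12, both KRAB proteins with 19 and 15 C2H2 motifs. Zfp60 stood at 5.08, 5.11 and 4.87 in D310N macrophages at 60 min, against 7.05, 7.02 and 6.84 at 0 min. WT macrophages had 4.78, 5.09 and 4.93 at 60 min, against 6.89, 6.95 and 6.92 at 0 min. All 60 min libraries lay below all 0 min libraries. The fall was 3.86-fold in D310N and 3.95-fold in WT macrophages, a log2 difference of -1.95 ± 0.10 (SE, limma adjusted p = 9.48e-17) and of -1.98 ± 0.10 (limma adjusted p = 5.68e-17). Zfp12 stood at 5.74, 5.60 and 5.95 in D310N macrophages at 60 min, against 7.24, 7.32 and 7.23 at 0 min. Its level in WT macrophages was 5.67, 5.40 and 5.51 at 60 min, against 7.37, 7.34 and 7.33 at 0 min. The groups again did not overlap, and the log2 difference was -1.50 ± 0.12 in D310N and -1.82 ± 0.12 in WT macrophages (limma adjusted p = 5.03e-12 and 4.85e-14). At 120 min Zfp60 stood at 6.33, 6.32 and 6.38 in D310N macrophages and at 6.18, 5.92 and 6.01 in WT macrophages, between its 60 min and 0 min levels.

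Zfp526 and Zfp324 followed. Zfp526, which has 13 C2H2 motifs and no KRAB motif, fell by 1.31 on the log2 scale in D310N and by 1.49 in WT macrophages at 60 min, and stayed lower at all later times. Zfp324, a KRAB protein, went below and then above its starting level. It stood at 5.21, 5.41 and 5.57 in D310N macrophages at 60 min and at 8.03, 8.16 and 7.94 at 240 min, with 6.87, 6.90 and 7.04 at 0 min. In WT macrophages the same times gave 5.62, 5.68 and 5.52, then 8.12, 8.42 and 8.49, with 7.09, 7.01 and 6.96 at 0 min. The 3 times did not overlap in either genotype. The 240 min rise was 1.11 ± 0.12 in D310N and 1.33 ± 0.12 in WT macrophages (limma adjusted p = 1.6e-09 and 2.83e-11).

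Fewer members rose at 60 min, led by Zfp719, Zfp263, Zfp131 and Zfp658. Zfp719, a KRAB protein with 13 C2H2 motifs, stood at 8.23, 8.38 and 8.40 in D310N macrophages at 60 min, against 6.61, 6.63 and 6.66 at 0 min. The WT values were 8.19, 8.27 and 8.26 at 60 min, against 6.85, 6.89 and 6.90 at 0 min. The groups did not overlap, and the rise was 3.25-fold in D310N (log2 difference 1.70 ± 0.08, limma adjusted p = 2.78e-17) and 2.57-fold in WT macrophages (1.36 ± 0.08, limma adjusted p = 9.02e-15). Zfp263, whose human form ZNF263 is a sequence-specific DNA-binding factor, stood at 11.91, 12.05 and 11.97 in D310N macrophages at 60 min, against 10.56, 10.67 and 10.58 at 0 min. In WT macrophages it stood at 11.99, 12.05 and 11.93 at 60 min, against 10.68, 10.77 and 10.62 at 0 min. Every 60 min library lay above every 0 min library, with log2 differences of 1.37 ± 0.06 and 1.30 ± 0.06 (limma adjusted p = 1.97e-18 and 8.21e-18). Zfp131, a BTB-domain zinc finger protein, rose by 1.31 ± 0.06 in D310N and 1.12 ± 0.06 in WT macrophages. Zfp658, whose human form binds the zinc transcriptional regulatory element, rose by 1.03 ± 0.10 and 0.94 ± 0.10. At 30 min Zfp719 and Zfp263 had already risen, by 1.06 and 0.31 in D310N and by 0.79 and 0.34 in WT macrophages. Zfp131 had risen by 0.20 in both, and Zfp658 had not passed the test.

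**Figure D3:**
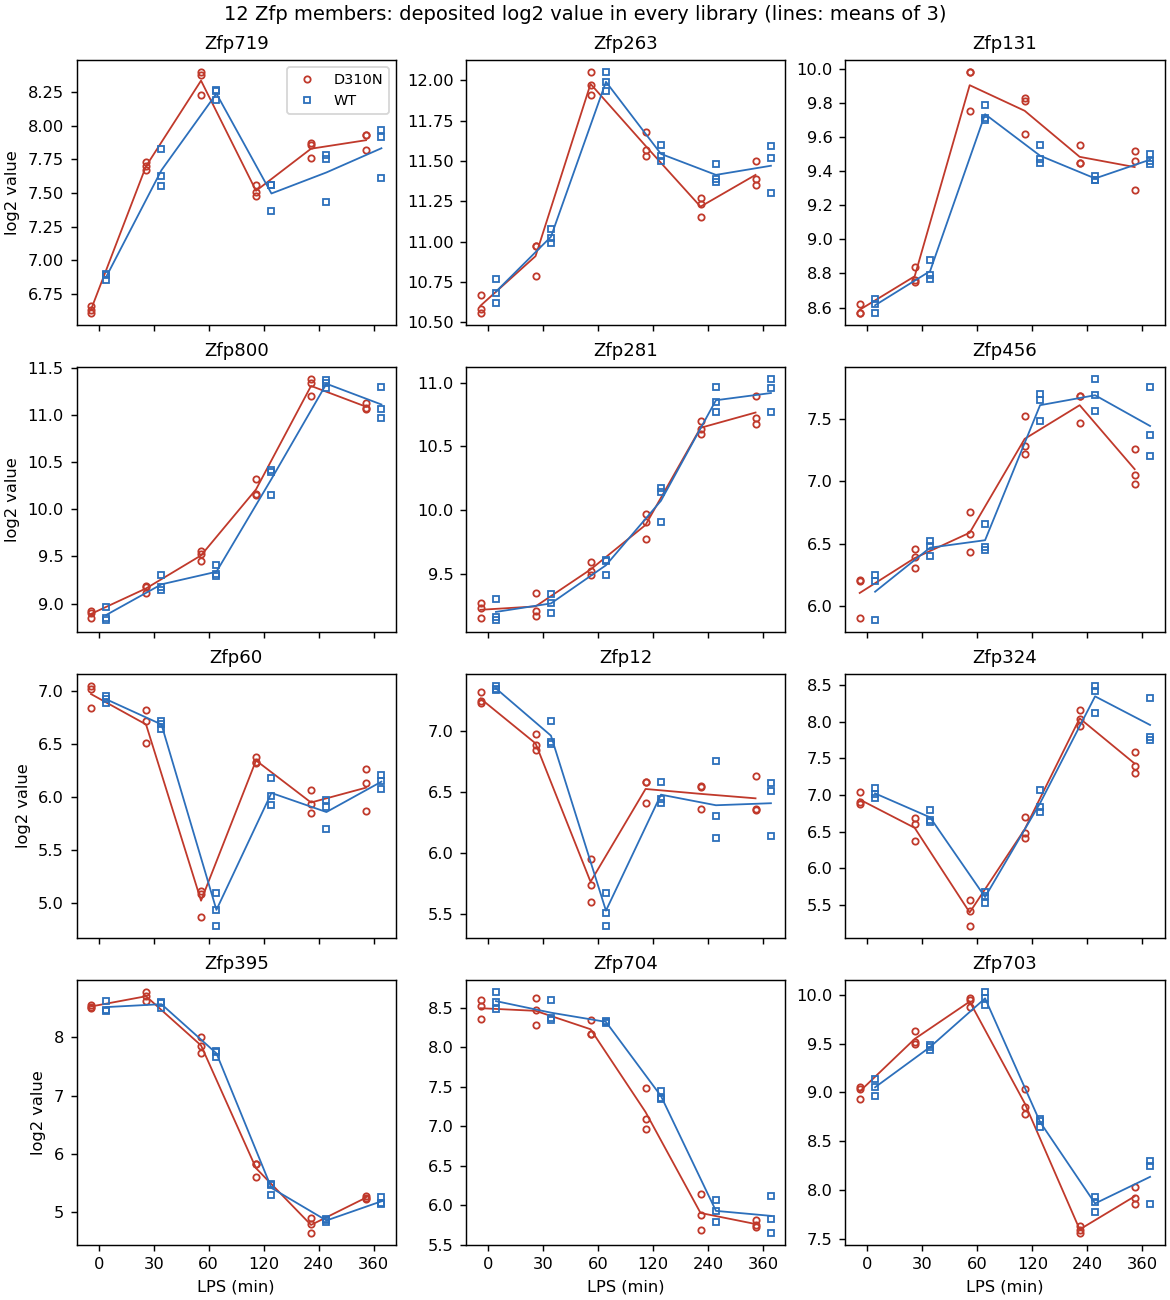
Deposited log2 value of 12 members in every library by LPS time in min, with D310N (circles) left of WT (squares) at each time and lines through the means of 3 libraries. Zfp60 falls to between 4.78 and 5.11 at 60 min in both genotypes and Zfp719 rises to between 8.19 and 8.40, while Zfp800 and Zfp395 move most at 240 min.

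The promoters of the pair that rose most and the pair that fell most at 60 min are shown to let their sequences be compared. They were chosen after their values were seen. Each line gives 250 bases before the RefSeq start on the coding strand, 5′ to 3′, in build GRCm38.p6, all on the plus strand. Capitals mark a GC box (GGGCGG, read on both strands) or a CCAAT box (CCAAT, both strands). The regions are chr7:43579336-43579585 for Zfp719, chr16:3743849-3744098 for Zfp263, chr7:27731159-27731408 for Zfp60 and chr5:143234913-143235162 for Zfp12.
Zfp719: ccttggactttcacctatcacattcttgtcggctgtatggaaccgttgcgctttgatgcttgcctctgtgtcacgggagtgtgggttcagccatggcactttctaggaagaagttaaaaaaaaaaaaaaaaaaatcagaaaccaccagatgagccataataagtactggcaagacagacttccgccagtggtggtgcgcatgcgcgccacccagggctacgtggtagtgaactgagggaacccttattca
Zfp263: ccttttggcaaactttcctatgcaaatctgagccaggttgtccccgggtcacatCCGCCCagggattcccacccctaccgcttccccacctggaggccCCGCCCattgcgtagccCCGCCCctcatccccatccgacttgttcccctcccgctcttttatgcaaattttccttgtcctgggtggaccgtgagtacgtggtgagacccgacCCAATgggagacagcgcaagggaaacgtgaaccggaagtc
Zfp60: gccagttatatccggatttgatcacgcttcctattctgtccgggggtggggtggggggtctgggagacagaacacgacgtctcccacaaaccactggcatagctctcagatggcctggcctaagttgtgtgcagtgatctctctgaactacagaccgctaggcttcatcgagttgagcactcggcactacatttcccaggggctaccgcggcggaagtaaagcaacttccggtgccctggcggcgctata
Zfp12: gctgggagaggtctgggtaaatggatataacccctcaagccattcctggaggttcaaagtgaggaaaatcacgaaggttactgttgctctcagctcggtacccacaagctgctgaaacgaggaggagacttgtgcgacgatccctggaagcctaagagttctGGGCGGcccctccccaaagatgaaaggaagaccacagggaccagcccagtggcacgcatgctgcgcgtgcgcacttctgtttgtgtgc
Zfp263 held 3 GC boxes, 196, 152 and 135 bases before the start, and a CCAAT box 40 bases before it. Zfp12 held 1 GC box 88 bases before the start, and the windows of Zfp719 and Zfp60 held none of the 8 motifs searched. The identity of the windows was 47.4% between Zfp719 and Zfp263 and 47.7% between Zfp60 and Zfp12.

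RefSeq promoters were matched for 150 of the 182 members by symbol, 1 per member, and the 250 bases before the start were searched on both strands. The comparison set was all 32851 RefSeq promoters, of genes expressed here or not, and was not reduced to 1 per gene. The 2 sets are thus not alike, and the shares are a description. The NF-kB site, GGG and TTTCC set 2 bases apart, was found in 5 of the 150 (3.33%, against 1.41% of 32851 promoters), namely those of Zfp429, Zfp456, Zfp617, Zfp780b and Zfp84. It was present in 3 of the 22 matched members that rose and 2 of the 101 that fell at 60 min in WT macrophages. The RefSeq start matched for Zfp617, one of those that rose, lies 14190 bases from its GENCODE start. The cAMP response element TGACGTCA was found in 6 (4%, against 1.55%), 5 of which fell at 60 min in WT macrophages: Zfp266, Zfp426, Zfp874a, Zfp874b and Zfp953. The sixth was that of Zfp335, a chromatin coactivator subunit. Of all 150 matched members, 101 fell at 60 min in WT macrophages. The AP-1 site TGANTCA was found in 3.33% of members and 6.75% of all promoters, and the interferon response element, GAAA and GAAA set 2 bases apart, in 0.667% and 2.98%. TATAAA was found in 5.33% and 12.4%, GGGCGG in 48.7% and 32.7%, and CCAAT in 45.3% and 33.8%. ACTACAA, the core of the ZNF143 site, was found in 4% and 2.81%. A match is a stretch of letters in this window and not a shown binding site. The windows of Zfp456 and Zfp429 were 86.0% identical and those of Zfp874a and Zfp874b 76.2%, so their matches are not separate cases.

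At 30 min few members had moved. In D310N macrophages 7 rose and 16 fell, where 6.64% of all genes were called, 5.16% higher and 1.48% lower. In WT macrophages 9 rose and 12 fell, where 6.09% were called, 4.79% higher and 1.3% lower. With library weights the D310N split was 26 higher and 34 lower. The 4 deepest falls in WT macrophages were those of the KRAB genes Zfp87 and Zfp748 on chromosome 13, Zfp799 on chromosome 17 and Zfp84 on chromosome 7. Zfp87 stood at 6.23, 6.61 and 6.56 in D310N macrophages at 30 min, against 7.55, 7.51 and 7.24 at 0 min. Its level in WT macrophages was 6.72, 6.62 and 6.63 at 30 min, against 7.36, 7.46 and 7.33 at 0 min. All 30 min libraries lay below all 0 min ones, with log2 differences of -0.97 ± 0.09 in D310N and -0.73 ± 0.09 in WT macrophages (limma adjusted p = 6.77e-10 and 2.88e-07). Zfp748 fell by 0.79 in D310N and 0.64 in WT macrophages, Zfp799 by 0.51 and 0.59, and Zfp84 by 0.61 and 0.57. Zfp703, a corepressor, rose by 0.54 in D310N and 0.42 in WT macrophages, and Zfp622, a factor in the maturation of the large ribosomal subunit, rose by 0.40 in both.

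Past 60 min the level of the group moved up again. Compared directly with 60 min, a comparison added after the data were seen, 86 members were higher and 44 lower at 240 min in D310N macrophages (median log2 difference 0.14), where 74.5% of all genes were called, 37.1% of them higher and 37.4% lower. In WT macrophages 93 were higher and 45 lower (median 0.20), where 75.9% were called, 37.4% higher and 38.5% lower, and quantile normalisation gave 115 higher and 31 lower. Each member's largest difference from 0 min came at 60 min for 69 members in D310N macrophages, 59 of them lower, and for 75 in WT macrophages, 66 of them lower. The 5 times are compared with the same 0 min libraries.

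At 120 min 39 members rose and 85 fell in D310N macrophages (median -0.18), where 64.0% of all genes were called, 31.9% higher and 32.1% lower. In WT macrophages 29 rose and 109 fell (median -0.26), where 66.6% were called, 32.4% higher and 34.2% lower, and quantile normalisation gave 42 higher and 78 lower with a median of -0.15. At 240 min 45 rose and 95 fell in D310N macrophages (median -0.19), where 79.1% of all genes were called, 39.0% higher and 40.2% lower, and the median was -0.10 under quantile normalisation. In WT macrophages 48 rose and 92 fell (median -0.20), where 80.0% were called, 39.6% higher and 40.4% lower, and quantile normalisation gave 63 and 67 with a median of -0.02. At 360 min 51 rose and 86 fell in D310N macrophages, with a median of -0.14 that turned to 0.02 under quantile normalisation (63 higher, 53 lower), where 80.0% of all genes were called, 39.0% higher and 41.0% lower. In WT macrophages 49 rose and 84 fell, with a median of -0.10 that turned to 0.04 under quantile normalisation (73 higher, 54 lower), where 80.4% were called, 39.3% higher and 41.0% lower. Without WT 360 min replicate 1 the WT split was 55 higher and 72 lower, with a median of -0.07.

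The late falls were led by a pair of related genes. Zfp395, whose human form ZNF395 was described as a papillomavirus-binding and Huntington's disease gene regulatory factor, stood at 4.79, 4.89 and 4.64 in D310N macrophages at 240 min, against 8.51, 8.56 and 8.53 at 0 min. The WT values were 4.87, 4.85 and 4.83 at 240 min, against 8.63, 8.48 and 8.46 at 0 min. The groups did not overlap, with log2 differences of -3.76 ± 0.08 in D310N and -3.67 ± 0.08 in WT macrophages (limma adjusted p = 2.28e-28 and 4.08e-28), the largest of any member in either direction. Zfp704, known in the mouse as glucocorticoid-induced gene 1, stood at 6.14, 5.68 and 5.88 in D310N macrophages at 240 min, against 8.36, 8.60 and 8.53 at 0 min. WT macrophages had 5.79, 5.92 and 6.07 at 240 min, against 8.49, 8.57 and 8.70 at 0 min. Again without overlap, the log2 difference was -2.60 ± 0.12 in D310N and -2.66 ± 0.12 in WT macrophages, and the gene had not passed the test at 60 min (limma adjusted p = 0.0756 in D310N and 0.0857 in WT macrophages).

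Zfp652, Zfp362, Zfp367, Zfp512 and Zfp608, none with a KRAB motif, also ranked among the 4 deepest falls in WT macrophages at 120, 240 or 360 min. KRAB members just outside that rank fell about as far, with Zfp266 at -1.20 in each genotype and Zfp111 at -1.24 in D310N and -1.20 in WT macrophages at 360 min. Zfp362 fell by 1.26 in D310N and 1.43 in WT macrophages at 240 min. Zfp367 fell by 1.16 and 1.38 at 120 min, and Zfp512 by 1.1 and 1.24. Zfp608, which in mouse thymocytes represses the Rag genes, fell by 1.87 and 1.51 at 360 min, with an SD of 0.37 over the WT 360 min libraries.

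The late rises were led by Zfp800 and Zfp281. Zfp800, needed for endocrine development in the mouse pancreas, stood at 11.38, 11.20 and 11.34 in D310N macrophages at 240 min, against 8.90, 8.85 and 8.92 at 0 min. In WT macrophages it stood at 11.34, 11.28 and 11.37 at 240 min, against 8.83, 8.96 and 8.85 at 0 min. The groups did not overlap, and the rise was 2.41 ± 0.07 in D310N and 2.45 ± 0.07 in WT macrophages on the log2 scale (limma adjusted p = 1.74e-24 and 1.05e-24). Among KRAB members, Zfp949 rose by 0.99 in D310N and 1.38 in WT macrophages at 240 min, and Zfp961 by 1.36 and 1.48. Zfp945 peaked at 120 min, with rises of 0.75 and 1.1. Zfp513, known from human retinal disease, rose by 1.37 in D310N and 1.35 in WT macrophages at 360 min, and Zfp821 by 1.55 and 1.46. The WT 360 min libraries of Zfp821 had an SD of 0.56.

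By role, the RNA, ribosome and mitosis proteins among the members moved in both directions. Of 11 such members, 2 rose and 2 fell in D310N and 2 rose and 3 fell in WT macrophages at 60 min. At that time 21.3% of all genes were higher and 17.2% lower in D310N, and 20.1% and 17.1% in WT macrophages. At 240 min 3 of the 11 rose in each genotype, with 2 falling in D310N and 3 in WT macrophages. The 5 and 6 called at 240 min are a smaller share of the 11 than the 79.1% and 80.0% of all genes called then. Zfp207 (BuGZ), a spindle assembly partner of Bub3 and the member with the highest level per kb, stood at 11.71, 11.70 and 11.70 in D310N macrophages at 240 min, against 10.63, 10.65 and 10.67 at 0 min. The WT values were 11.92, 11.89 and 11.86 at 240 min, against 10.70, 10.78 and 10.69 at 0 min. It rose by 1.06 ± 0.03 and 1.17 ± 0.03 on the log2 scale, with no overlap. Zfp385a (Hzf), an RNA-binding p53 cofactor, rose by 0.63 in D310N and 0.69 in WT macrophages at 240 min. Zfp622 rose by 0.83 and 0.91 at 60 min, and Zfp598, the ubiquitin ligase that senses collided ribosomes, rose by 0.95 and 0.74 at 120 min.

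Of the 10 members listed as DNA-binding activators and general promoter factors, 3 rose and 4 fell in D310N and 3 rose and 5 fell in WT macrophages at 60 min. Of all genes, 21.3% rose and 17.2% fell in D310N, and 20.1% and 17.1% in WT macrophages at that time. At 360 min 7 rose and 2 fell in each genotype, with medians of 0.31 in D310N and 0.25 in WT macrophages, where 80.0% and 80.4% of all genes were called. Zfp281, a regulator of pluripotency in mouse embryonic stem cells, stood at 10.68, 10.90 and 10.72 in D310N macrophages at 360 min, against 9.15, 9.27 and 9.23 at 0 min. WT macrophages had 10.77, 11.03 and 10.96 at 360 min, against 9.16, 9.30 and 9.14 at 0 min. The rise was 1.55 ± 0.07 in D310N and 1.72 ± 0.07 in WT macrophages, with no overlap. Zfp740 moved the other way, falling by 0.69 and 0.77 at 240 min.

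Of the 11 members listed as corepressor and chromatin complex subunits, 7 fell and 2 rose in D310N and 8 fell and 2 rose in WT macrophages at 60 min. At that time 17.2% and 17.1% of all genes fell, and 113 and 122 of all 182 members. Nothing particular to this list is read from its counts. Zfp703, which binds Groucho-type corepressors and is amplified as an oncogene in human breast cancer, rose and then fell. It stood at 9.97, 9.95 and 9.88 in D310N macrophages at 60 min and at 7.56, 7.63 and 7.59 at 240 min, with 8.93, 9.04 and 9.06 at 0 min. In WT macrophages the values were 10.03, 9.97 and 9.90, then 7.93, 7.77 and 7.88, with 9.14, 8.96 and 9.06 at 0 min. None of these groups overlapped within a genotype. Zfp652, whose human form pairs with CBFA2T3, fell by 1.61 in D310N and 1.71 in WT macrophages at 240 min. Zfp518b, a partner of the histone methyltransferase G9a in human cells, fell by 0.41 and 0.75. Zfp217, a subunit of LSD1 and CtBP complexes, rose by 0.86 and 0.73 at 120 min.

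Of the 8 members listed under ubiquitin, SUMO and immune signalling, 2 rose and 3 fell in each genotype at 60 min. Of all genes, 21.3% rose and 17.2% fell in D310N, and 20.1% and 17.1% in WT macrophages. Zfp451, a SUMO ligase, rose by 0.49 in D310N and 0.58 in WT macrophages at 60 min and fell by 0.75 and 0.83 at 240 min. Zfp64, described in mouse macrophages as a positive factor in Toll-like receptor signalling, fell by 0.60 and 0.67 at 60 min and by 0.60 and 0.75 at 240 min. Of the 5 KRAB members known to silence imprinted genes or retroelements, 4 fell and 0 rose in each genotype at 60 min, with medians of -0.47 and -0.44. Of all 182 members, 113 fell in D310N and 122 in WT macrophages at that time. Zfp568, the repressor of the placental Igf2 promoter in mice, fell by 0.61 in D310N and 0.44 in WT macrophages. Zfp932, a repressor of endogenous retroviruses, fell by 0.47 and 0.48, but it shares 39.6% of its 75-base windows with other genes. Zfp809, which silences retroviruses in mouse embryonic stem cells, was at -0.28 and -0.30 at 60 min without passing the test (limma adjusted p = 0.162 and 0.139), and fell by 0.64 and 0.54 at 240 min. Under quantile normalisation the WT value of Zfp809 at 240 min was -0.20 and did not pass (limma adjusted p = 0.212).

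A list of 30 repressor and chromatin genes was measured for comparison. It holds Trim28, Setdb1, HP1 and histone deacetylase genes, and others that are not all recruited by KRAB proteins. Of the 30 genes, 3 rose and 5 fell in D310N and 5 rose and 11 fell in WT macrophages at 60 min. Of all genes, 21.3% rose and 17.2% fell in D310N, and 20.1% and 17.1% in WT macrophages at that time. At 240 min 12 of the 30 rose and 13 fell in D310N, and 7 rose and 15 fell in WT macrophages. Then 79.1% of all genes were called in D310N and 80.0% in WT macrophages. Trim28, the KRAB corepressor, was at 10.51, 10.41 and 10.42 in D310N macrophages at 120 min, against 10.70, 10.60 and 10.73 at 0 min. Its level in WT macrophages was 10.35, 10.22 and 10.30 at 120 min, against 10.70, 10.66 and 10.63 at 0 min. It fell by 0.23 ± 0.06 and 0.37 ± 0.06. Setdb1, its histone H3 lysine 9 methyltransferase, fell by 0.76 and 0.93 at 120 min. The deepest falls were those of Uhrf1 and Dnmt1, which maintain DNA methylation after replication, with log2 differences of -2.44 and -1.51 in D310N and -2.75 and -1.83 in WT macrophages at 240 min. The summed proliferation markers were at 11.54 to 11.64 in D310N and 11.91 to 11.99 in WT libraries at 240 min, also below their 0 min levels, and their part in these falls was not tested. Cbx3, an HP1 protein, fell by 1.29 and 1.52 at 360 min, and Zmynd8, a chromatin reader that binds Zfp592 and Zfp687, fell by 1.16 and 1.29 at 120 min.

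Members next to each other along a chromosome and at most 100 kb apart formed 49 pairs of 69 genes. In D310N macrophages at 60 min both genes were called in 34 pairs, 28 of them in the same direction, and in WT macrophages in 38 pairs, 31 in the same direction. Of all called members, 113 of 137 in D310N and 122 of 148 in WT macrophages fell, so nothing particular to neighbours is read from these counts. The Spearman correlation of neighbours' 60 min differences was 0.28 in both genotypes, a description over pairs that share libraries and genes. At 240 min both were called in 29 pairs in D310N, 21 in the same direction, and in 27 pairs in WT macrophages, 18 in the same direction. Zfp658 and Zfp719, 4.1 kb apart on chromosome 7, both rose at 60 min.

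A run of 11 neighbours on chromosome 13, a region known in mice for KRAB regulators of sex-limited liver genes, split at 60 min. Zfp456 and Zfp429 rose and the other 9 fell in both genotypes. Zfp456 stood at 7.68, 7.47 and 7.68 in D310N macrophages at 240 min, against 5.90, 6.20 and 6.21 at 0 min. In WT macrophages it stood at 7.69, 7.82 and 7.56 at 240 min, against 5.89, 6.25 and 6.20 at 0 min. The groups did not overlap, with rises of 1.51 ± 0.12 and 1.58 ± 0.12 on the log2 scale (limma adjusted p = 9.75e-13 and 3.01e-13). Zfp429 was at 7.80, 7.72 and 7.70 in D310N macrophages at 240 min, against 7.00, 7.10 and 7.07 at 0 min. In WT macrophages it was at 8.01, 7.96 and 7.98, against 7.09, 7.17 and 7.23 at 0 min. It rose by 0.68 and 0.82, again with no overlap. Zfp953, 1.5 kb from Zfp456 on its other side, fell by 0.49 in D310N and 0.59 in WT macrophages at 60 min. Their neighbours Zfp874a and Zfp874b lay 24.7 kb from Zfp429 or more and fell at 60 min, by 0.32 and 0.90 in D310N and by 0.53 and 0.84 in WT macrophages. Zfp456, Zfp429 and Zfp874a share 11.4%, 12.6% and 10.4% of their 75-base windows with other genes, and Zfp874b 8.94%, so their values are uncertain.

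**Figure D4:**
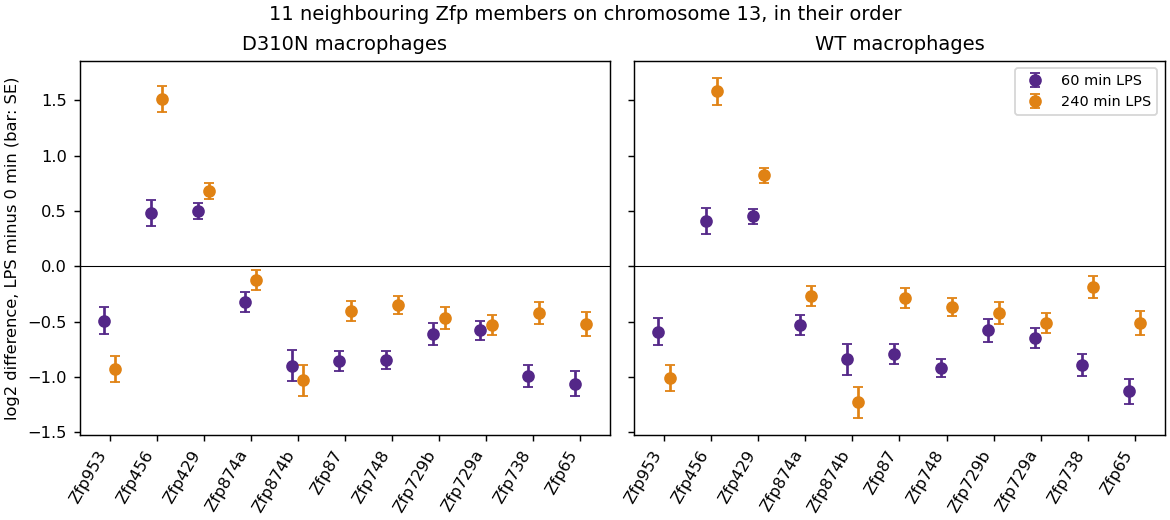
Log2 difference from 0 min (points, with SE bars) at 60 and 240 min LPS for 11 neighbouring members in their order along chromosome 13, in D310N (left) and WT (right) macrophages. Zfp456 and Zfp429 lie above 0, reaching 1.51 and 0.68 in D310N and 1.58 and 0.82 in WT macrophages at 240 min, while the other 9 lie below 0.

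The last 30 bases before the RefSeq start of Zfp456, Zfp429, Zfp874a and Zfp874b are given 5′ to 3′. They are on the coding (minus) strand in build GRCm38.p6. Of the fallers in the run only Zfp874a and Zfp874b are shown, and these 4 genes too were chosen after their values were seen. Capitals mark the NF-kB site in the first pair, read here as its reverse complement, and the cAMP response element in the second. The positions are chr13:67375764-67375793 for Zfp456, chr13:67399768-67399797 for Zfp429, chr13:67451625-67451654 for Zfp874a and chr13:67484254-67484283 for Zfp874b.
Zfp456: tctaGGAAATACCCttctgacttcaagtct
Zfp429: caGGAAATCCCCttctgacttcaggtttgt
Zfp874a: aaatgtagtctgcagcacggTGACGTCAca
Zfp874b: atgtagtctgtagcacggTGACGTCAcaga
The RefSeq starts of Zfp456 and Zfp429 lie 47 and 52 bases inside the first exon given by GENCODE. Over the full 250 bases before the start, Zfp456 and Zfp429 were identical at 86.0% of aligned positions and Zfp874a and Zfp874b at 76.2%, while identity across the pairs was 46.8% to 50.4%. The full windows also held a CCAAT box 207 bases before the start of Zfp456 and a ZNF143 site 89 bases before that of Zfp874b. Of the fallers in the run not shown, only Zfp953 had a match to the cAMP response element where a promoter was matched. Whether any of these motifs bears on expression was not tested.

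Few Zfp members differed between the genotypes at any single time. The largest such difference called, -0.56 on the log2 scale for Zfp961 at 360 min, was -0.13 and not called without WT 360 min replicate 1. At 0 min 0 members were higher and 1 was lower in D310N than in WT macrophages, where 10.7% of all genes were called, 3.64% higher and 7.09% lower. The one called was Zfp948, a KRAB gene, at 6.45, 6.73 and 6.57 in D310N against 6.82, 6.83 and 6.96 in WT macrophages, with no overlap and a log2 difference of -0.29 ± 0.08 (limma adjusted p = 0.0207). The call was lost under quantile normalisation (-0.23, limma adjusted p = 0.0701), without WT replicate 3 (limma adjusted p = 0.118) and without D310N replicate 1 (0.184) or 3 (0.0741). The split was 1 higher and 1 lower, with Zfp948 not called, under quantile normalisation and 5 higher and 11 lower with library weights. At 30 min 2 were higher and 4 lower, where 12.2% of all genes were called, 4.43% higher and 7.78% lower (3 and 17 with library weights). At 60 min 5 were higher and 0 lower, where 12.9% were called, 4.89% higher and 7.96% lower (20 and 8 with library weights).

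At 120 min 13 members were higher and 4 lower in D310N macrophages, where 17.7% of all genes were called, 7.94% higher and 9.72% lower. At 240 min 5 were higher and 10 lower, where 17.0% were called, 6.98% higher and 10.0% lower. At 360 min 7 were higher and 7 lower, where 16.3% were called, 6.8% higher and 9.52% lower. That last split was 3 higher and 14 lower without WT 360 min replicate 1, and 5 and 18 with library weights, while 8 members were called without either D310N replicate 1 or D310N replicate 3. At every time the share of members called was below that of all genes. The genotype shares, here and for the average over times, were not matched for level. A mean log2 value of 8 or above was reached by 6731 of the 11656 genes, but by only 11 KRAB and 47 other members. In all, 43 members (23.6%) were called at 1 time or more, where 38.4% of all genes were, and 14 (7.69%) at 2 or more, where 20.3% of all genes were.

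Several single-time calls were lost when 1 library was left out. At 30 min Zfp335, which links DNA binding to histone methyltransferase complexes, was higher by 0.19 in D310N macrophages and Zfp710 by 0.13, while Zfp51 was lower by a log2 difference of -0.36. The call of Zfp710 was lost when any one of 5 of the 6 libraries was left out (limma adjusted p = 0.052 to 0.266), and that of Zfp51 without WT replicate 2 (0.0516) or D310N replicate 1 (0.107). At 60 min Zfp397 (0.28) and Zfp24 (0.26), a SCAN-domain protein needed for myelination in mice, were higher, and the call of Zfp397 was lost when any one of 4 of the 6 libraries was left out (limma adjusted p = 0.0587 to 0.155). At 240 min Zfp518b (0.35) was higher and Zfp949 (-0.43) and Zfp46 (-0.34) were lower in D310N macrophages. The call of Zfp518b was lost when any one of 4 libraries was left out (limma adjusted p = 0.0732 to 0.24), and that of Zfp46 without WT replicate 3 (0.13) or D310N replicate 1 (0.123). At 30 min the call of Zfp335 was likewise lost without WT replicate 1 (0.114) or D310N replicate 3 (0.187).

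Averaged over the 6 times, 23 members were higher and 21 lower in D310N macrophages, 24.2% of the 182, where 48.1% of all genes were called, 22.7% higher and 25.4% lower. Quantile normalisation gave 46 higher and 13 lower, so no direction is given for the group. The largest differences upward were those of Zfp609 (0.24 ± 0.04), a partner of the cohesin loader and Integrator in mouse neural progenitors, Zfp292 (0.21 ± 0.04) and Zfp28 (0.20 ± 0.04). Zfp512 (0.17 ± 0.04) lies 3.0 Mb from Tnip2 on chromosome 5, while Zfp513, 3.3 Mb away on the same side, was at -0.03 and did not pass (limma adjusted p = 0.312). Zfp592 (0.15 ± 0.03), a partner of Zmynd8, and Zfp275 (0.15 ± 0.06) followed. The call of Zfp275 was lost without WT 30 min replicate 2 (limma adjusted p = 0.0603).

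Zfp609 stood at 8.89, 9.10 and 9.13 in D310N macrophages at 120 min, against 8.77, 8.63 and 8.53 in WT macrophages, without overlap (log2 difference 0.40 ± 0.10, limma adjusted p = 0.0045). Its genotypes did not overlap at 5 of the 6 times. The largest differences downward were those of Zfp324 (-0.27 ± 0.05), Zfp949 (-0.24 ± 0.03), Zfp948 (-0.20 ± 0.03), Zfp961 (-0.18 ± 0.07, a call lost under 18 alternatives), Zfp51 (-0.16 ± 0.04) and Zfp319 (-0.15 ± 0.02). All but Zfp319 carry a KRAB motif. Zfp319 stood at 9.03, 9.15 and 8.92 in D310N macrophages at 120 min, against 9.32, 9.24 and 9.25 in WT macrophages, without overlap. Its 120 min call was lost without D310N replicate 3 (limma adjusted p = 0.0706). The 120 min call of Zfp324 (-0.36) was lost under 5 settings (limma adjusted p = 0.0565 to 0.208).

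Part of the 360 min differences rested on WT replicate 1. Zfp961 stood at 6.99, 7.20 and 6.79 in D310N macrophages at 360 min, against 8.42, 7.23 and 7.02 in WT macrophages, where the first library lay far above the others. Without it the log2 difference was -0.13 in place of -0.56 (limma adjusted p = 0.411), and the average of Zfp961 over the times lost its call under 18 settings, 15 of them the omission of 1 library (limma adjusted p = 0.0503 to 0.0938). Zfp874b moved to 0.16 from 0.42 when that library was left out (limma adjusted p = 0.357). Zfp324 and Zfp28 kept their calls without it, at -0.34 and 0.35 (limma adjusted p = 0.0372 and 0.0345) in place of -0.53 and 0.44.

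**Figure D5:**
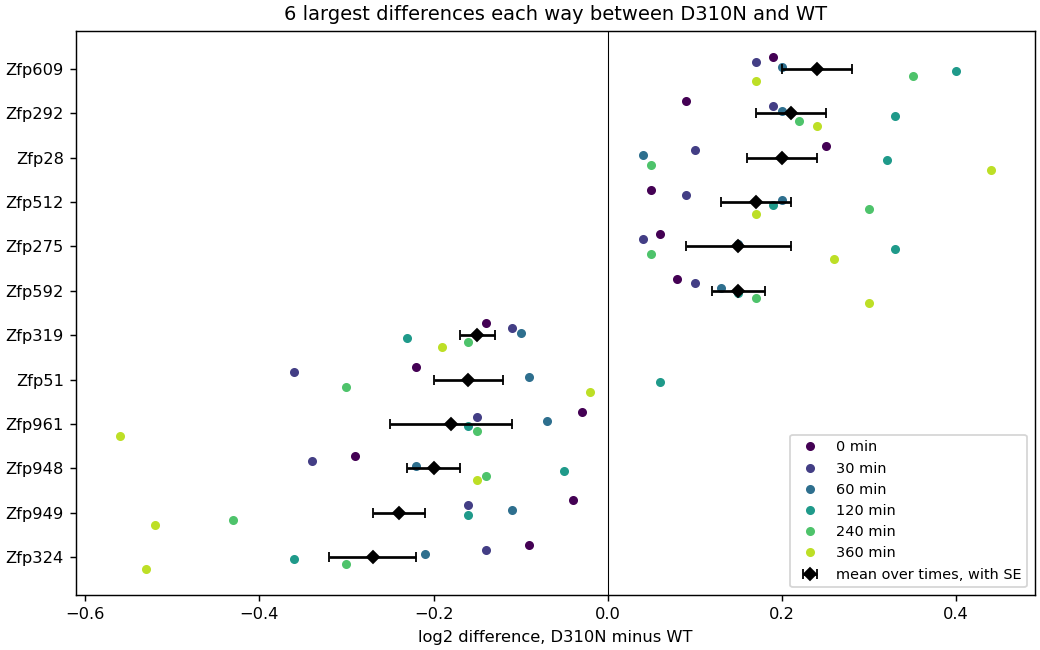
Log2 difference, D310N minus WT, at each LPS time (dots, 0 to 360 min) and averaged over the times (diamonds, with SE bars), for the 6 members with the largest called average each way. Averages run from 0.24 for Zfp609 to -0.27 for Zfp324. The -0.56 of Zfp961 at 360 min rests on WT replicate 1.

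Whether LPS acted differently in the 2 genotypes was tested jointly over the 5 LPS times. The joint test called 4 of the 182 members, where 4.84% of all genes were called: Zfp617, Zfp516, Zfp949 and Zfp217. Zfp949 stood at 7.83, 7.94 and 7.80 in D310N macrophages at 360 min, against 8.45, 8.49 and 8.19 in WT macrophages, without overlap, and its LPS rise was 0.75 in D310N and 1.23 in WT macrophages. Zfp516, which in mice activates Ucp1 in brown fat, stood at 10.46, 10.54 and 10.41 in D310N macrophages at 60 min, against 10.21, 10.23 and 10.23 in WT macrophages, without overlap, with rises of 0.81 and 0.53. Zfp217 stood at 9.95, 9.93 and 9.94 in D310N macrophages at 60 min, against 9.76, 9.69 and 9.75 in WT macrophages. It was at 0.09 in D310N macrophages (limma adjusted p = 0.191) and fell by 0.24 in WT macrophages relative to 0 min. Zfp617, which shares 39.0% of its 75-base windows, stood at 8.09, 8.18 and 8.0 in D310N macrophages at 360 min, against 8.61, 8.53 and 8.35 in WT macrophages. The next smallest joint p-values were those of Zfp703, Zfp131, Zfp710 and Zfp160, which did not pass (limma adjusted p = 0.051 to 0.0858). Without WT 360 min replicate 1 the joint test called 14 members, and without WT 360 min replicate 2 it called 9.

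Single members were ranked by level per kb of transcript. On that log2 scale, averaged over the 36 libraries, the highest was Zfp207 (10.44), followed by Zfp263 (9.62), Zfp740 (9.04), Zfp91 (8.70), Zfp385a (8.66) and Zfp710 (8.54). Zfp91, a ubiquitin ligase of the NF-kB-inducing kinase NIK in human cells, fell by 0.30 in D310N and 0.31 in WT macrophages at 120 min and rose by 0.22 and 0.20 at 360 min. WT replicate 1 of Zfp91 stood at 11.16 at 360 min, against 11.50 and 11.40 in its fellows. Zfp710 dipped and recovered. It stood at 10.25, 10.19 and 10.23 in D310N macrophages at 120 min and at 11.68, 11.70 and 11.69 at 240 min, with 11.23, 11.20 and 11.21 at 0 min. In WT macrophages the values were 10.36, 10.32 and 10.29, then 11.69, 11.68 and 11.65, with 11.16, 11.10 and 11.06 at 0 min. The 3 times did not overlap within either genotype.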

How the data were processed

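RNA-seq of 36 macrophage libraries (75-base single-end reads) was analysed from the table of normalised log2 values that the authors deposited, in which each column is 1 library. Per the submitters' processing notes, STAR 2.5.2a, RSEM 1.2.31, DESeq2 1.10.1 and the build mm10 were used, with roles and order not stated. How the log2 values were normalised and transformed is not given in the sources used here, and values below 0 occur (lowest -4.14), so read depth is unknown and fold changes hold on the deposited scale. Of 16439 rows, 23 whose names had turned into dates were left out. Tests covered the 11656 rows that reached 10 on the linear scale (log2 3.32) in at least 3 libraries.

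A limma 3.58.1 model (R 4.3.3) with 12 group means was fitted to all libraries, and empirical Bayes moderation followed the mean level. Tests were two-sided, and Benjamini-Hochberg adjustment ran over all 11656 genes with a threshold of 0.05. "Called", "rose" and "fell" mean an adjusted p below it. Python 3.11.15, pandas 2.3.3 and scipy 1.17.1 did the rest. Gene models came from GENCODE mouse release 21 and promoters from RefSeq (GRCm38.p6). The members, gene lists and tests were chosen with earlier results of these data known. Genes named are the 4 largest called changes each way at each LPS time in WT macrophages, the largest called genotype differences, the smallest joint p-values, the highest levels per kb, and the role lists' largest changes. A few others were named after their values were seen.

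The fit was tested on simulated data for D310N against WT at 0 min over 11656 genes. It called 19 of 50 genes shifted by 0.25 on the log2 scale, 38 of 50 shifted by 0.5 and 49 of 50 shifted by 1. In it 11456 genes were not shifted, and each gene had the same spread in every library. In the real data 10.7% of genes were called at 0 min and library weights differed, so these rates need not hold there. Same-numbered libraries had correlated deviations above 0.1 in all 3 pairs only for D310N at 120 min (0.325, 0.373 and 0.131). Over all LPS times against 0 min, the correlations ran from 0.0366 to 0.419 in D310N and from -0.249 to 0.126 in WT macrophages. A pairing within D310N alone was not modelled, as the replicate block used 1 shift per number for both genotypes. The alternatives tried were pseudocounts of 1 and 8, no filter and a filter at 50, quantile and trimmed-mean scaling, no trend, library weights, only the groups compared, a replicate block and leaving out each library.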

Additional observations from a re-analysis of the deposited data

Results flagged for a closer look

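The LPS response differed between the genotypes, by a test of the difference itself, for 4 members in the joint test over the 5 LPS times. The limma adjusted p was 0.00496 for Zfp617, 0.0163 for Zfp516, 0.0251 for Zfp949 and 0.0329 for Zfp217. At 360 min alone, the response in D310N minus that in WT macrophages was -0.43 for Zfp617 (limma adjusted p = 0.0136) and -0.48 for Zfp949 (limma adjusted p = 0.0209), where 2.01% of all genes were called. At 60 min it was 0.28 for Zfp516 (limma adjusted p = 0.103) and 0.33 for Zfp217 (limma adjusted p = 0.0956), neither past the threshold. The joint call of Zfp949 was lost without D310N 360 min replicate 1 (limma adjusted p = 0.0561) or replicate 3 (0.0655). That of Zfp217 was lost when any one of 13 libraries was left out (0.0529 to 0.101) and without the intensity trend (0.0511).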

How the results depend on the processing

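Outside the joint test, for which direction was not compared, no result that was compared changed direction. Those compared were LPS responses in WT macrophages and genotype differences of genes named by the stated rules. LPS responses of single members in D310N macrophages, and some other values given, were not compared. Of 2116 alternative values of 96 results, 2012 kept their side of the threshold, 83 lost it and 21 gained it. Of 378 alternative counts of members called in either direction, 340 stayed within 1.5 times. The counts of the LPS response at 60 min did so under each alternative run. A turned split between higher and lower, as in WT macrophages at 360 min under quantile normalisation, is not seen in these totals. With library weights 39 members were called at 30 min in WT and 60 in D310N macrophages, and for the genotype 16 at 0 min, 20 at 30 min, 28 at 60 min, 30 at 240 min, 23 at 360 min and 21 in the joint test. Quantile normalisation gave 34 members at 30 min in WT macrophages, and for the genotype 2 at 0 min, 8 at 60 min and 9 at 240 min. With only the groups compared in the fit, which leaves fewer samples to estimate the spread, 37 were called at 30 min in D310N macrophages, and for the genotype 4 at 0 min, 13 at 60 min, 9 at 120 min and 0 at 360 min. That fit was not run for the average over times or the joint test. The cause of the other changes was not tested.

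Leaving out 1 library at a time gave 15 to 18 members at 30 min in D310N macrophages. For the genotype it gave 0 to 2 at 0 min, 2 to 5 at 30 min, 3 to 7 at 60 min, 9 to 14 at 120 min, 6 to 13 at 240 min, 8 to 23 at 360 min, 39 to 49 for the average over times and 3 to 14 in the joint test. With the replicate number as a block, 138 members were called at 60 min in D310N and 149 in WT macrophages, against 137 and 148 without it, and no count moved by over 1.5 times. Under quantile normalisation the WT call of Zfp932 at 360 min was lost (-0.13, limma adjusted p = 0.151). Without counts, depth sets no stated limit here, and 3 libraries a group may leave small differences undetected. In the simulation 38 of 50 shifts of 0.5 were called at 0 min, a rate that need not hold for the real data.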

Other observations

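The Zfp rows below the level threshold and the related families were read in the same fit at 60 min. At that time 21.3% of all genes were higher and 17.2% lower in D310N, and 20.1% and 17.1% in WT macrophages. Of the 117 lower expressed Zfp rows that passed the filter on low values, 96 fell and 4 rose in D310N macrophages (median log2 difference -0.93), and 94 fell and 2 rose in WT macrophages (median -0.99). Since passing the filter needs a high value in some group, these counts describe only the rows that passed. Of 39 Zbtb genes, which pair zinc fingers with a BTB domain, 17 fell and 10 rose in D310N (median -0.14) and 20 fell and 11 rose in WT macrophages (median -0.21). Of 16 Zkscan and Zscan genes, which carry a SCAN domain, 12 fell and 1 rose in each genotype, with medians of -0.77 in D310N and -0.84 in WT macrophages.

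Among the listed repressor and chromatin genes, 12 of 30 were higher and 9 lower in D310N macrophages on average over the times, where 22.7% of all genes were higher and 25.4% lower. Uhrf1 was lower by a log2 difference of -0.31 ± 0.03 (limma adjusted p = 3.36e-10) and Dnmt1 by -0.15 ± 0.02 (limma adjusted p = 2.89e-07). The summed proliferation markers were lower in D310N libraries as well, at 12.71 to 12.83 against 13.28 to 13.34 in WT libraries at 60 min, and their part in these differences was not tested.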
